A study of Mus musculus with 3 samples.

Results

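The enzymes that write, maintain and remove DNA methylation were examined as RNAs in mouse ES cells. The set held the 4 Dnmt genes (Dnmt1, Dnmt3a, Dnmt3b and Dnmt3l), the 3 Tet genes (Tet1, Tet2 and Tet3) and Uhrf1, chosen by gene symbol. All 8 were found among the 26887 genes counted in the series. RNA was collected by RIA-seq (RNA interactome analysis and sequencing), in which antisense oligonucleotides to a chosen RNA pull that RNA, and RNAs attached to it, out of the lysate of fixed cells. Undifferentiated E14 ES cells (strain 129/Ola), grown without feeder cells in serum and LIF, were fixed in 1% glutaraldehyde for 10 min. Every library came from such cells, and the labels give no genetic change or drug. They differed in the oligonucleotides used: Actb antisense oligonucleotides (Actb RIA-seq, the control, against the mRNA of beta-actin), Malat1 antisense (Malat1 RIA-seq, against a long non-coding RNA of the nucleus) and Tfrc antisense (Tfrc RIA-seq, against the mRNA of the transferrin receptor). Each condition had 1 library, so no difference below has a replicate check, and each test compares the reads of 2 libraries and not the conditions. The libraries are called by their target, and a fold of a gene's share of the library total in the Malat1 library over that in the Actb library is written Malat1/Actb, likewise Tfrc/Actb and Malat1/Tfrc.

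DNA methylation in mammals is the addition of a methyl group to cytosine, mostly in CG pairs. Dnmt3a and Dnmt3b place new methyl groups and Dnmt3l, which lacks catalytic activity, assists them in germ cells and early embryos. Dnmt1 copies the pattern to the new strand after replication, and Uhrf1 recognises hemimethylated DNA and recruits Dnmt1. Tet1, Tet2 and Tet3 oxidise 5-methylcytosine to 5-hydroxymethylcytosine and beyond, which opens a route to unmethylated cytosine. ES cells are known for high Tet1 and Tet2 and for tolerating the loss of methylation.

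On build NCBIM37, Dnmt1 (ENSMUSG00000004099) lies at chr9:20711650-20757317 on the minus strand, and Uhrf1 (ENSMUSG00000001228) at chr17:56442744-56462909 on the plus strand. The de novo genes all lie on the plus strand, Dnmt3a (ENSMUSG00000020661) at chr12:3806007-3914443, Dnmt3b (ENSMUSG00000027478) at chr2:153475186-153513466 and Dnmt3l (ENSMUSG00000000730) at chr10:77504692-77526367. The Tet genes all lie on the minus strand, Tet1 (ENSMUSG00000047146) at chr10:62267318-62361866, Tet2 (ENSMUSG00000040943) at chr3:133126643-133207354 and Tet3 (ENSMUSG00000034832) at chr6:83312367-83391672. All counts below are over whole genes, from 12 merged exons in Tet2 and Tet3 to 39 in Dnmt1.

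The members were compared as sequences, because related genes can share reads. Over the annotated protein-coding transcripts (GENCODE, build NCBIM37), the longest exact run shared by any pair of members was 20 bases, between Tet1 and Tet2 and outside the coding sequence. Within the Dnmt3 genes the longest runs lay in coding exons. Below, they stand in capitals with 6 flanking bases on each side, to show where the relatives stop matching.
Dnmt3a, exon 8 of its transcript, chr12:3896037-3896054, plus strand: acttcgGGGCTTCTCCTGGTGGCCaggccg
Dnmt3b, exon 8 of its transcript, chr2:153493287-153493304, plus strand: gatcaaGGGCTTCTCCTGGTGGCCtgccat
Dnmt3a, exon 14 of its transcript, chr12:3899641-3899655, plus strand: tcctatTGCACCATCTGCTGTgggggg
Dnmt3l, exon 6 of its transcript, chr10:77514791-77514805, plus strand: agttacTGCACCATCTGCTGTtccggg
The first pair shared 18 bases and the second 15. The pseudogene Dnmt3l-ps1 (chromosome 2) shared at most 18 bases with Dnmt3l, had 1 count in the Tfrc library and none in the other libraries, and was kept apart. Dnmt3l overlaps Aire, which lies on the opposite strand and had 65 summed counts in the Actb library, 439 in the Malat1 library and 376 in the Tfrc library. Strand-specific counting is not stated, so reads of this overlap cannot be assigned and the values of Dnmt3l are uncertain.

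The Actb, Malat1 and Tfrc libraries held 10405209, 10078439 and 14553941 counts. Levels are given as CPM, counts per 1000000 of the library total, and 3 counts, the limit that a count of 0 allows, equal 0.206 to 0.298 CPM. Malat1 RNA was 5.81-fold higher in the Malat1 library and 3.84-fold higher in the Tfrc library than in the Actb library. Tfrc RNA was 2.69-fold higher in the Tfrc library than in the Actb library, but also 2.32-fold higher in the Malat1 library. Actb RNA was 82.1-fold higher in the Actb library than in the Malat1 library. The 10 genes with the most counts took 52.0% of the Actb library, 23.2% of the Malat1 library and 32.6% of the Tfrc library. The median gene was 1.82-fold higher (0.86 on the log2 scale) in the Malat1 library and 1.56-fold higher (0.64) in the Tfrc library than in the control. The Malat1 library exceeded the Tfrc library by 1.15-fold (0.21) at the median gene. Folds of the share of the library total are therefore given beside these medians. All 8 ES cell markers looked for were counted in every library, summing to 2766 to 4125 CPM. The 10 markers of differentiated cells summed to 10.5 to 20.8 CPM. Of these, 8 had counts in the Actb library, 8 in the Malat1 library and 9 in the Tfrc library. Those without counts included Alb in the Actb library and Cdx2 in the Malat1 library.

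With Ensembl-ID and Genome counts summed, Tet1 and Tet2 were the members most increased in the Malat1 library. Tet1 had 724 CPM (Ensembl-ID and Genome counts summed, as explained further on) in the Actb library, 1852 in the Malat1 library and 1173 in the Tfrc library. Both pull-downs stood above the control and the Malat1 library above the Tfrc library, with 95% counting intervals that did not meet. This was a 2.56-fold increase (95% interval 2.49 to 2.63) in Malat1/Actb and a 1.62-fold increase (1.58 to 1.66) in Tfrc/Actb. The first was 1.40 times and the second 1.04 times the fold of the median gene. The increase in the Tfrc library thus lay close to the shift of all genes, and scaling by the median ratio over genes gave 0.973. Tet2 had 272 CPM in the Actb library, 883 in the Malat1 library and 565 in the Tfrc library. Its folds were 3.24 (3.11 to 3.38) and 2.07 (1.99 to 2.16), or 1.78 and 1.33 times the median gene. Tet2 was above 88.9% of all genes in Malat1/Actb and above 74.0% in Tfrc/Actb. Both comparisons use the same control library and are not independent.

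Tet3, the Tet enzyme known for its role in the zygote and in neurons, was the rarest of the 3. It had 17.6 CPM in the Actb library, 26.1 in the Malat1 library and 26.7 in the Tfrc library. Its folds over the control, 1.48 (1.23 to 1.79) and 1.52 (1.27 to 1.81), were 0.815 and 0.975 times the fold of the median gene, and both fell under 1 when libraries were scaled by the median ratio. With Ensembl-ID counts alone the folds of Tet3 were 1.17 (0.944 to 1.45) and 1.41 (1.17 to 1.71). Tet3 rose less than Tet1 in the Malat1 library. The ratio of Tet1 to Tet3, which needs no scaling, was 41.2 in the control, 71.0 in the Malat1 library and 43.9 in the Tfrc library. The change of that ratio was 1.72-fold (1.42 to 2.08) in the Malat1 library and 1.07-fold (0.892 to 1.27) in the Tfrc library. In Genome counts alone, described further on, the interval for the Malat1 library was 0.669 to 1.69.

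The maintenance pair, Dnmt1 and Uhrf1, differed from each other. Dnmt1 had 214 CPM in the Actb library, 318 in the Malat1 library and 228 in the Tfrc library. It was 1.49-fold (1.41 to 1.57) above the control in the Malat1 library and 1.07-fold (1.01 to 1.13) in the Tfrc library. Both values were below the shift of the median gene, and median-ratio scaling turned both to decreases, 0.790 and 0.641. Uhrf1 had 102 CPM in the Actb library, 98.7 in the Malat1 library and 122 in the Tfrc library. It was the only member whose share of the library was lower in the Malat1 library than in the control (0.965-fold, 0.886 to 1.05), a difference the chi-square test did not separate from 1 (adjusted p = 0.466). Under the 4 other scalings it was lower and past the test, at 0.513 to 0.604, and with Genome counts only it was 3.92. Against the Tfrc library it was 0.809-fold (0.749 to 0.875; adjusted p = 5.68e-07), a direction that held under the 4 other scalings of the library but turned to 1.36 with Genome counts only. The ratio of Uhrf1 to Dnmt1 was 0.478 in the Actb library, 0.311 in the Malat1 library and 0.535 in the Tfrc library. It was therefore 0.650-fold (0.587 to 0.719) in Malat1/Actb and 1.12-fold (1.02 to 1.23) in Tfrc/Actb.

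The catalytic de novo enzymes, Dnmt3a and Dnmt3b, stayed below the shift of the median gene in both pull-downs. Dnmt3a had 77.5 CPM in the Actb library, 89.4 in the Malat1 library and 91.1 in the Tfrc library. Dnmt3b had 43.7, 48.2 and 44.7 CPM in the same order, with intervals that overlapped throughout. The folds over the control were 1.15 (1.05 to 1.27) and 1.18 (1.08 to 1.28) for Dnmt3a, and 1.10 (0.970 to 1.25) and 1.02 (0.906 to 1.15) for Dnmt3b. All 4 were between 0.606 and 0.755 times the fold of the median gene, and all 4 turned under 1 with median-ratio scaling. The ratio of Dnmt3a to Dnmt3b was 1.77, 1.85 and 2.04 in the Actb, Malat1 and Tfrc libraries, and the intervals of its change over the control held 1 in both pull-downs. With Ensembl-ID counts alone that change was 1.22-fold (1.03 to 1.46) in Malat1/Actb and 1.25-fold (1.06 to 1.46) in Tfrc/Actb. Dnmt3l had 14.3 CPM in the control, 24.5 in the Malat1 library and 19.0 in the Tfrc library. Its folds were 1.71 (1.40 to 2.10) and 1.33 (1.09 to 1.62), or 0.940 and 0.853 times the median gene. With Ensembl-ID counts alone the folds of Dnmt3l were 1.03 (0.801 to 1.33) and 0.943 (0.743 to 1.20), with intervals that held 1. In Genome counts alone they were 4.41 (2.96 to 6.56) and 2.86 (1.92 to 4.27).

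**Figure D1:**
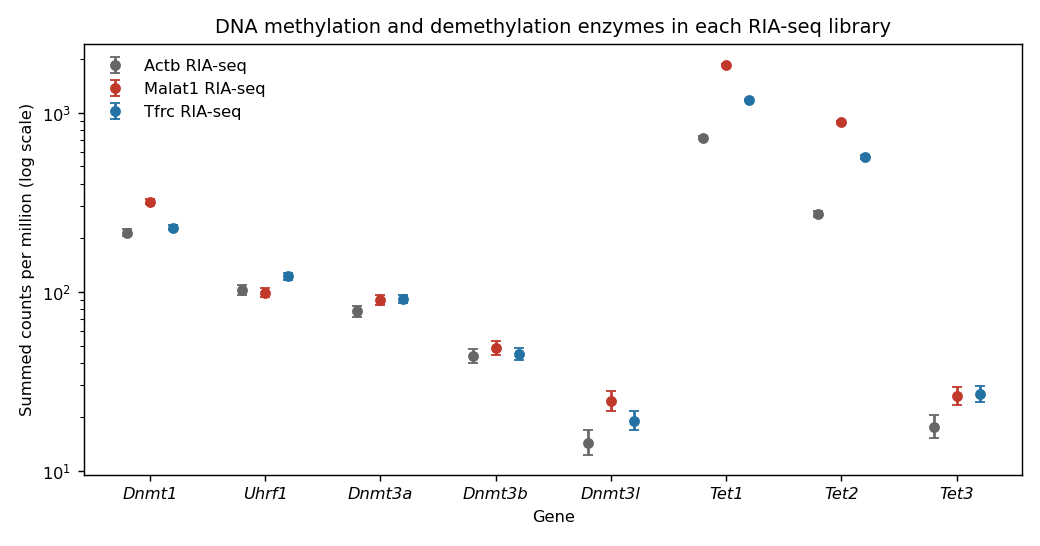
Summed CPM (log scale) of the 8 genes in the Actb, Malat1 and Tfrc libraries, 1 each; bars are 95% Wilson intervals of the counts. Tet1 and Tet2 stand apart between the libraries, at 724 and 272 in the Actb library against 1852 and 883 in the Malat1 library, while Dnmt3b stays between 43.7 and 48.2.

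A gene was called where its fold was at least 2 or at most 0.5 with at least 10 counts in both libraries. All 8 members passed that minimum in each comparison, with summed, Ensembl-ID and Genome counts alike. In Malat1/Actb, 2 of 8 members (Tet1 and Tet2) reached a fold of 2, against 42.1% of the 14572 genes tested, and none was at 0.5 or less, against 0.954%. The share of members was thus below that of all genes. The median fold of the 8 members was 1.49, against 1.82 over all genes. In Tfrc/Actb, 1 of 8 (Tet2) reached a fold of 2, against 28.6% of genes, and none was at 0.5 or less, against 0.388%. The members' median was 1.26, against 1.56. In Malat1/Tfrc, no member reached either limit, against 4.35% of genes at 2 or more and 1.92% at 0.5 or less. The folds in that comparison ranged from 1.58 (1.55 to 1.61) for Tet1 and 1.56 (1.52 to 1.61) for Tet2 to 0.809 for Uhrf1. Between them lay Dnmt1 at 1.39 (1.33 to 1.46), Dnmt3l at 1.29 (1.08 to 1.53), Dnmt3b at 1.08 (0.960 to 1.21), Dnmt3a at 0.981 (0.902 to 1.07) and Tet3 at 0.976 (0.835 to 1.14), against a median gene at 1.15. Tet1 and Tet2 were not separated there, and the ratio of their folds was 1.01 (0.974 to 1.05).

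Neighbours in the order of folds were often not separated. In Malat1/Actb the order was Tet2, Tet1, Dnmt3l, Dnmt1, Tet3, Dnmt3a, Dnmt3b and Uhrf1. Tet2 exceeded Tet1 by 1.27-fold (1.21 to 1.33) and Tet1 exceeded Dnmt3l by 1.49-fold (1.22 to 1.83). From Dnmt3l to Uhrf1, only the step from Tet3 to Dnmt3a had an interval that left out 1. In Tfrc/Actb, Tet2 stood above Tet1, and no other neighbours were separated.

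Ratios within a library do not depend on how libraries are scaled. The 3 Tet genes together had 2.25 times (2.17 to 2.32) the summed counts of the 4 Dnmt genes and Uhrf1 in the Actb library. This rose to 4.77 times (4.64 to 4.91) in the Malat1 library and 3.49 times (3.41 to 3.59) in the Tfrc library. Tet1 and Tet2 supplied nearly all of the Tet counts. The ratio of Tet1 to Dnmt1 was 3.39 in the control, 5.83 in the Malat1 library and 5.14 in the Tfrc library. The ratio of Tet1 to Tet2 was lower in both pull-downs, at 2.10 and 2.08, than in the control, at 2.66. These are ratios of summed counts. In Genome counts alone, described further on, Tet1 to Dnmt1 did not rise, and the intervals for the change of Tet1 to Tet2 held 1.

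The tables list up to 2 counts for each gene, 1 under its Ensembl identifier and 1 under the reference name Genome. What separates them is not given in the sources used here. Genome counts made up 5.25% of the Actb library, 19.0% of the Malat1 library and 15.1% of the Tfrc library. Tet1 had 6959 Ensembl-ID and 578 Genome counts in the Actb library, 16535 and 2126 in the Malat1 library, and 15033 and 2032 in the Tfrc library. Uhrf1 had 1001 and 63, 756 and 239, and 1521 and 254 in the same order. Its Ensembl-ID share was thus lowest in the Malat1 library while its Genome count was several-fold that of the control. With Ensembl-ID counts, the folds of Malat1/Actb were 3.20 (3.06 to 3.35) for Tet2 and 2.45 (2.39 to 2.52) for Tet1, both past a fold of 2, which 24.0% of genes reached. The other 6 lay between 1.22 for Dnmt1 and 0.780 (0.709 to 0.857) for Uhrf1, against a median gene at 1.41. In Tfrc/Actb, no member reached a fold of 2 with Ensembl-ID counts, against 14.1% of genes. Tet2 came closest at 1.996, and Dnmt3b was lowest at 0.896. With Genome counts, all 8 members were past a fold of 2 in both comparisons, against 88.6% of genes in Malat1/Actb and 79.6% in Tfrc/Actb. Those folds ranged from 3.12 for Dnmt3b to 5.07 (4.27 to 6.04) for Dnmt1 in the Malat1 library, and from 2.06 for Dnmt3b to 2.92 for Dnmt1 in the Tfrc library. The median genes were at 3.60 and 2.86.

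**Figure D2:**
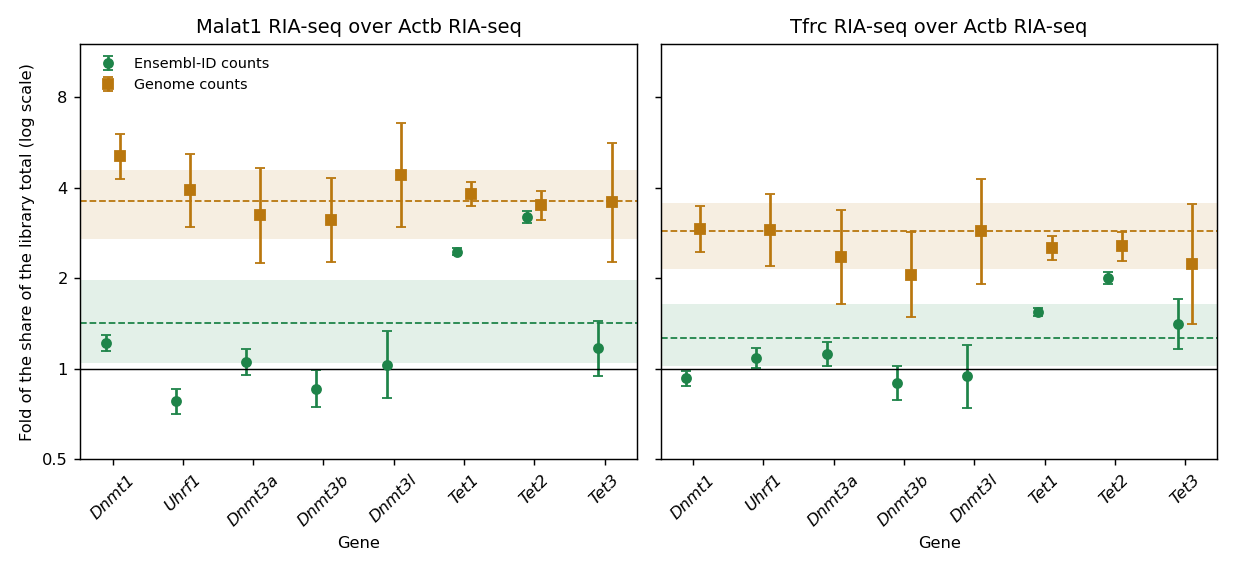
Fold of each gene's share of the library total (log scale) in Malat1/Actb (left) and Tfrc/Actb (right), which share the control, for Ensembl-ID counts (circles) and Genome counts (squares) with 95% counting intervals; dashed lines are the medians and bands the middle 50% of all genes tested with that kind of count. In Malat1/Actb, the Ensembl-ID folds of Tet1 and Tet2 (2.45 and 3.20) stand above their band while Genome folds of 7 genes lie within theirs and that of Dnmt1, 5.07, lies above it; with median-ratio scaling, most of the summed folds turn to values under 1.

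The scaling-free ratios showed the same contrast between the kinds of count. With Ensembl-ID counts, the 3 Tet genes had 2.19 times the counts of the other 5 members in the control, 5.47 times in the Malat1 library and 3.65 times in the Tfrc library. With Genome counts the ratio was 2.98 (2.63 to 3.38), 2.55 (2.39 to 2.71) and 2.77 (2.60 to 2.95). The shift towards Tet RNA in Malat1/Actb was thus 2.50-fold (2.38 to 2.62) in Ensembl-ID counts and 0.854-fold (0.743 to 0.981) in Genome counts. The ratio of Uhrf1 to Dnmt1 fell in Ensembl-ID counts, from 0.484 in the control to 0.309 in the Malat1 library. In Genome counts it was 0.409 and 0.316, with an interval for the change of 0.556 to 1.07. Tet1 to Dnmt1 changed 2.01-fold (1.89 to 2.15) in Malat1/Actb in Ensembl-ID counts and 0.748-fold (0.615 to 0.910) in Genome counts. Tet1 to Tet2 changed 0.766-fold (0.726 to 0.808) there in Ensembl-ID counts and 1.09-fold (0.940 to 1.26) in Genome counts. In Tfrc/Actb, the Genome changes were 0.861-fold (0.705 to 1.05) and 0.984-fold (0.851 to 1.14).

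**Figure D3:**
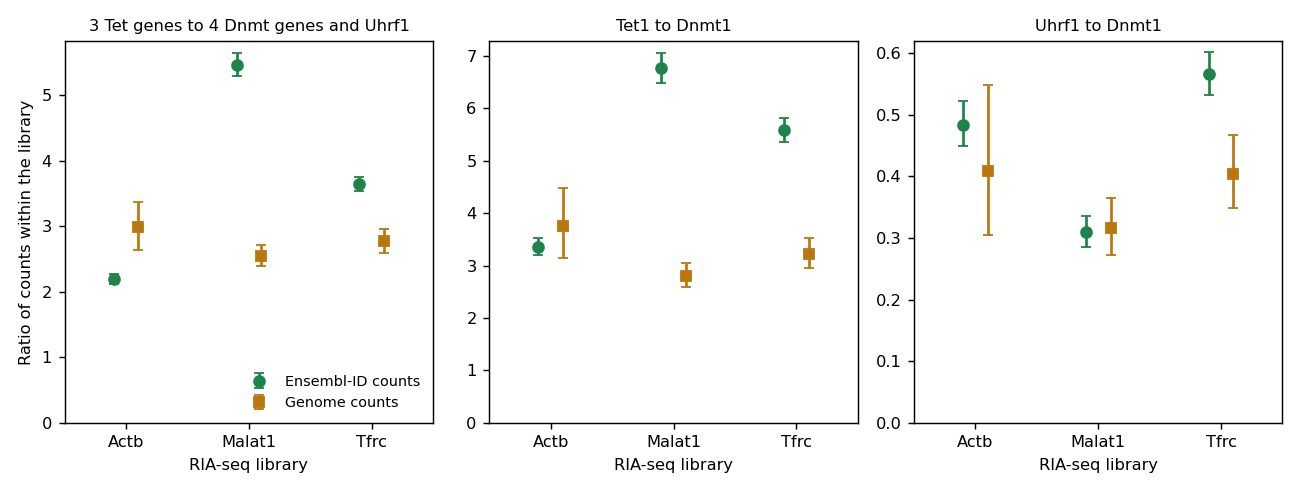
Ratios of counts within each library, with 95% counting intervals: the 3 Tet genes to the 4 Dnmt genes and Uhrf1 (left), Tet1 to Dnmt1 (middle) and Uhrf1 to Dnmt1 (right), for Ensembl-ID counts (circles) and Genome counts (squares). In Ensembl-ID counts the Tet ratio goes from 2.19 in the Actb library to 5.47 in the Malat1 library, and in Genome counts from 2.98 to 2.55.

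The share of Genome counts was higher in the Malat1 library than in the Actb library for 7 of 8 members by the chi-square test, all but Tet2, against 50.1% of the genes tested. In the Tfrc library it was higher than in the Actb library for 7 of 8, all but Tet3, against 44.4%. Genes tested needed only 10 summed counts in each library, whereas the members had 149 to 18661. Genes with more counts pass the test at smaller differences, so members and all genes are not compared at equal depth. In Tfrc/Actb, Tet2 passed at an odds ratio of 1.28 and Tet3 did not at 1.58. For Dnmt1 the Genome share was 6.92% (Wilson interval 5.94 to 8.06) in the Actb library, 23.6% (22.2 to 25.1) in the Malat1 library and 19.0% (17.7 to 20.3) in the Tfrc library. For Uhrf1 it was 5.92%, 24.0% and 14.3%, the largest odds ratio among the members in Malat1/Actb (5.02, 3.75 to 6.73). Dnmt3l had the highest share in each library, at 20.1%, 51.8% and 43.3%. Dnmt3a was lowest in the control and in the Tfrc library, at 4.71% and 9.43%, with 13.2% in the Malat1 library. Dnmt3b had 10.8%, 30.5% and 21.7%. Tet3 had 13.1%, 31.6% and 19.3%, and its difference between the Tfrc and Actb libraries did not pass the test (adjusted p = 0.133).

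Tet1 and Tet2 changed less. Tet1 went from 7.67% (7.09 to 8.29) in the Actb library to 11.4% (10.9 to 11.9) in the Malat1 library and 11.9% (11.4 to 12.4) in the Tfrc library. Tet2 was at 13.9% (12.7 to 15.2), 15.0% (14.3 to 15.7) and 17.1% (16.3 to 18.0). Their odds ratios in Malat1/Actb were 1.55 (1.41 to 1.70) and 1.09 (0.966 to 1.23; adjusted p = 0.252), whereas the other 6 members lay between 3.05 and 5.02. The median over all genes was 2.52, and 13.8% of genes had a lower odds ratio than Tet2. Relative to the share of Genome counts in each library as a whole, odds ratios were 0.365 for Tet1 and 0.257 for Tet2, so the direction depended on that reference. The median gene with at least 300 summed counts had a Genome share of 7.35% in the Actb library, 23.9% in the Malat1 library and 21.8% in the Tfrc library. Over the 8 members, the rank correlation of Genome share with total intron length was -0.214 in the Actb library, -0.738 in the Malat1 library and -0.619 in the Tfrc library, given as a description of 8 genes that share these libraries.

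**Figure D4:**
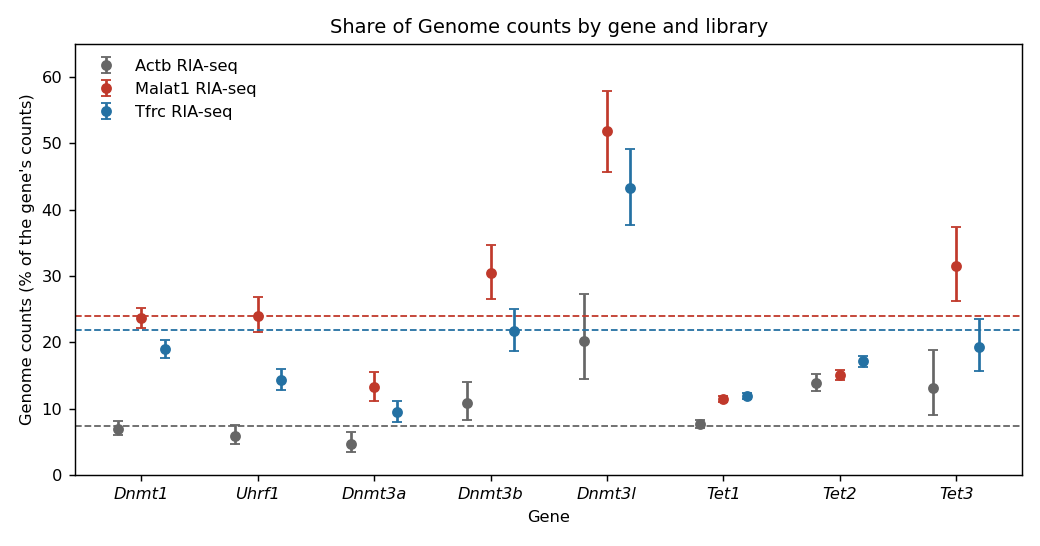
Genome counts as a percentage of each gene's counts in the 3 libraries, with 95% Wilson intervals; dashed lines are the medians of genes with at least 300 summed counts (7.35% in the Actb library, 23.9% in the Malat1 library and 21.8% in the Tfrc library). Tet1, Dnmt3a, Tet2 and Dnmt1 lie at 11.4%, 13.2%, 15.0% and 23.6% in the Malat1 library, below the dashed line, which the interval of Dnmt1 crosses. Dnmt3l, with under 300 summed counts in each library, reaches 51.8%.

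Per kilobase of merged exons, the order of the members differed between the libraries at the top only. As Ensembl-ID CPM per kilobase, the Actb library had Tet1 at 45.5, Dnmt1 at 37.8, Tet2 at 25.5 and Uhrf1 at 22.6. The Malat1 library had Tet1 at 111.5, Tet2 at 81.6, Dnmt1 at 46.1 and Uhrf1 at 17.6. The Tfrc library had Tet1 at 70.2, Tet2 at 50.9, Dnmt1 at 35.1 and Uhrf1 at 24.5. Tet2 therefore ranked behind Dnmt1 in the control and ahead of it in both pull-downs, and each of these steps exceeded counting error. Then came Dnmt3b (7.64, 6.57 and 6.85 in the Actb, Malat1 and Tfrc libraries), Dnmt3a (4.44, 4.66 and 4.96), Dnmt3l (3.83, 3.95 and 3.61) and Tet3 (1.38, 1.61 and 1.95). Dnmt3a and Dnmt3l were not separated in the Actb library or the Malat1 library, where the ratios were 1.16 (0.955 to 1.41) and 1.18 (0.973 to 1.43). With summed counts their order turned in all 3 libraries, to 4.66 for Dnmt3a and 4.79 for Dnmt3l in the Actb library, 5.37 and 8.20 in the Malat1 library, and 5.47 and 6.37 in the Tfrc library. The merged exons of Dnmt3a (16.6 kb) join all annotated forms, and which forms were present was not tested.

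GC content and exon length of the transcripts were set beside the folds. The longest annotated transcript of Tet1 had a GC content of 43.7% and that of Tet2 45.4%, while the other 6 lay between 51.9% and 53.7%. Over 11658 genes, GC content and the Ensembl-ID fold of Malat1/Actb had a rank correlation of -0.133, and merged exon length and that fold of 0.274. Among genes of the same GC decile, the median fold was 1.50 for Tet1 and 1.46 for Tet2, and the folds of Tet1 and Tet2 were 1.64 and 2.19 times as large. Among genes of the same exon length decile (8.27 to 117 kb) the median was 1.70 (n = 1166), Tet1 was above 81.4% of the genes and Tet2 above 94.1%. Dnmt3a and Tet3 fell in that same decile and lay above 9.26% and 14.2% of it. In Tfrc/Actb, Tet1 was above 55.8% of the genes of similar exon length and Tet2 above 82.3%. These decile values are of Ensembl-ID counts. With summed counts, Tet1 was above 62.8% of its exon length decile and Tet2 above 84.6% in Malat1/Actb. In Tfrc/Actb the summed values were lower, at 27.2% for Tet1 and 56.7% for Tet2. The part of GC content and of length in these folds was not tested.

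**Figure D5:**
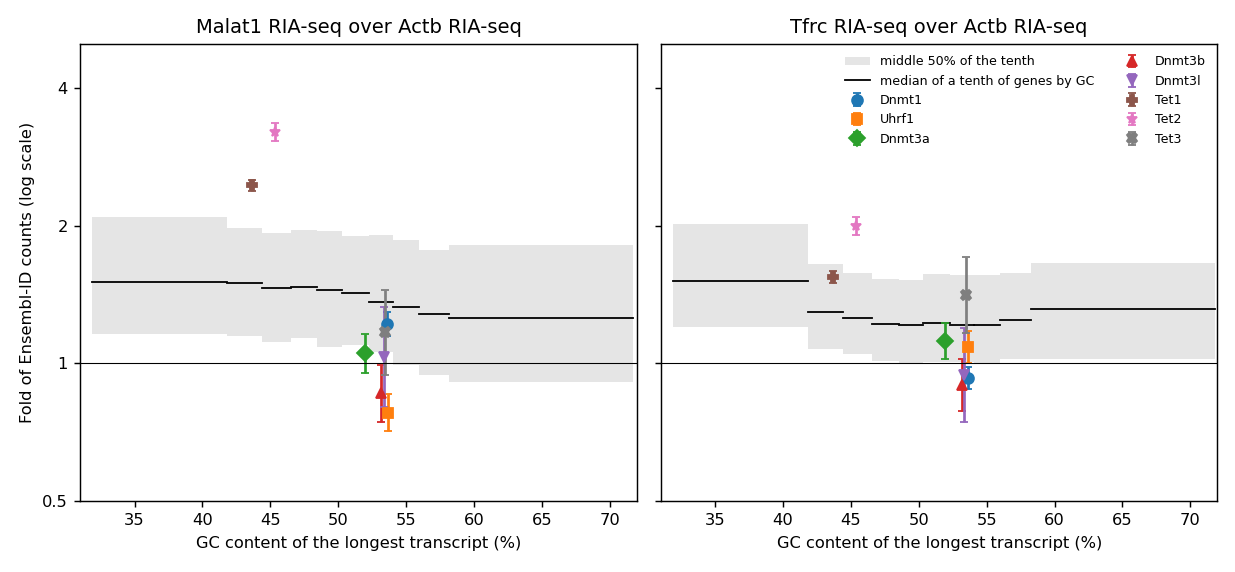
Fold of Ensembl-ID counts (log scale) in Malat1/Actb (left) and Tfrc/Actb (right) against the GC content of the longest transcript; points are the 8 genes with 95% counting intervals, black lines the median and grey boxes the middle 50% of all genes in each decile of GC content. Tet1 (43.7% GC) and Tet2 (45.4% GC) lie above the median of their deciles, by 1.64 and 2.19 times in Malat1/Actb; folds are relative to the library total.

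Genes that act with these enzymes were taken as 6 lists of 63 genes. Among methylcytosine readers, 6 of 11 reached a fold of 2 in Malat1/Actb and 5 of 11 in Tfrc/Actb, with medians of 2.34 and 1.81. The highest in Malat1/Actb was Uhrf2, a relative of Uhrf1, at 3.08 (2.70 to 3.52), with 2.42 (2.12 to 2.76) in Tfrc/Actb. The lowest in Malat1/Actb was Zbtb33, which encodes Kaiso, at 0.774 (0.549 to 1.09).

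Among chromatin regulators of DNA methylation, 5 of 14 genes tested reached a fold of 2 in Malat1/Actb and 5 of 13 in Tfrc/Actb, with medians of 1.67 and 1.66. Ogt, whose protein binds TET proteins and adds N-acetylglucosamine, was highest at 3.26 (2.99 to 3.55) and had 2.20 in the Tfrc library. Trim28, a corepressor at imprinted genes and retroelements, was lowest at 0.954 (0.916 to 0.993). Among the partners of maintenance methylation, 3 of 7 and 0 of 7 reached a fold of 2, with medians of 1.58 and 1.24. The range in the Malat1 library went from Cdca7, a partner of the remodeller Hells, at 2.21 (1.97 to 2.48) to the deacetylase Hdac2 at 1.03 (0.933 to 1.14).

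Among genes for base excision repair of oxidised methylcytosine, 4 of 11 tested and 2 of 11 tested reached a fold of 2, with medians of 1.33 and 1.15. The glycosylase Neil3 was highest at 3.12 (2.30 to 4.22) and had 3.46 in the Tfrc library, and the endonuclease Apex1 was lowest at 0.790 (0.674 to 0.925). In the methyl donor cycle, 4 of 10 and 0 of 10 reached a fold of 2, with medians of 1.70 and 1.40. Ahcy, which removes S-adenosylhomocysteine, was lowest at 0.861 (0.756 to 0.982). The 2-oxoglutarate enzymes, which make or use the cosubstrate of Tet enzymes, had 0 of 8 at a fold of 2 in either comparison, with medians of 1.22 and 1.21. Idh2 was highest at 1.86 (1.57 to 2.20). Idh3g was the only list gene at 0.5 or less, with 3287 counts in the Actb library, 675 in the Malat1 library and 1305 in the Tfrc library, or folds of 0.212 and 0.284. That limit was met by 0.954% of all genes in Malat1/Actb and 0.388% in Tfrc/Actb. Of all genes, 42.1% and 28.6% were past a fold of 2. Against these shares, methylcytosine readers had more in both comparisons and chromatin regulators in Tfrc/Actb. In Malat1/Actb, the 3 of 7 maintenance partners and the 4 of 10 genes of the methyl donor cycle were near that share. The other counts were below it. With Ensembl-ID counts, 1 of 11 readers reached a fold of 2 in Malat1/Actb, against 24.0% of genes. In Tfrc/Actb, 3 of 11 readers and 2 of 13 chromatin regulators did, against 14.1%. With lists this short, none of these is more than a description. Scaling by the median ratio left 0 list genes at a fold of 2 in the Malat1 library and 2 in the Tfrc library. That scaling divided the fold of every gene over the control alike, by 1.88 and 1.66.

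The genes whose pattern over both kinds of count and the 3 libraries came closest to that of Tet1, the member with the most counts, were Gnl2, Hic2 and Peo1. Their Euclidean distances over 6 log2 CPM values (1 count added, centred within each gene) were 0.227, 0.235 and 0.242, among 7664 genes with at least 100 summed counts in each library. Among the members, Tet2 was nearest to Tet1, at rank 526 (distance 0.890), closely followed by Dnmt3a at rank 663 (0.953). Tet3 was at rank 2565 (1.69). Gnl2 encodes a nucleolar GTPase of ribosome assembly, Hic2 a zinc finger transcriptional repressor and Peo1 the mitochondrial DNA helicase. Gnl2 had 485, 1040 and 860 Ensembl-ID counts and 34, 133 and 118 Genome counts in the Actb, Malat1 and Tfrc libraries.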

How the data were processed

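The 3 RIA-seq libraries of E14 cells were grouped by the oligonucleotides named in the labels. The authors deposited raw read counts per gene, whole numbers without normalization, listed by Ensembl identifier or as Genome. The submitters' processing notes name Bowtie 0.12.7, mm9 and NCBIM37 with no role or order. The counter, the annotation and the handling of reads with several matches are not given in the sources used here. Positions, exons and transcripts came from GENCODE for NCBIM37, which held 98.6% of the identifiers.

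Both counts of a gene were summed and divided by the library total (pseudocount 0). Pairs of libraries were tested by chi-square, two-sided and with no continuity correction (by Fisher's exact test below an expected count of 5). Genes had to reach 10 counts in each of the pair, and p-values were adjusted over all of these by Benjamini-Hochberg (Python 3.11.15, scipy 1.17.1). Fold and odds ratio intervals (95%) were computed on the log scale, and shares have Wilson intervals. All cover counting error only, since each condition had 1 library. No molecular identifiers are named for these libraries, so counts may include PCR duplicates, which the intervals do not cover. The code was tested on simulated data. Alternatives were scaling by the median ratio, by TMM (edgeR 4.0.16) or by the 75th percentile, totals without the 10 largest genes, 1 kind of count only, a pseudocount of 1, Fisher's exact test and count minimums of above 0 and of 50.

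The members, lists and rules were chosen with earlier results of these data known. Beside the members, the genes named are the highest and the lowest of each list in Malat1/Actb, the 3 nearest to Tet1, the targets, overlapping genes and a pseudogene, and markers at 0. The highest gene of 1 list is not reported here.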

Additional observations from a re-analysis of the deposited data

How the results depend on the processing

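No paired analysis was possible because each condition had 1 library, and none could be left out. For the folds below, values stand in the order median-ratio, TMM and 75th-percentile scaling, then a library total without the 10 genes with the most counts. In Malat1/Actb, 5 members turned from an increase to a decrease: Dnmt1 (0.790, 0.807, 0.818, 0.929), Dnmt3a (0.613, 0.626, 0.635, 0.722), Dnmt3b (0.586, 0.598, 0.607, 0.689), Tet3 (0.788, 0.805, 0.817, 0.928) and, under the first 3 scalings, Dnmt3l (0.909, 0.929, 0.942), and the median of the 8 members went to 0.789, 0.806, 0.818 and 0.928. The decreases of Dnmt3l did not pass the chi-square test. Nor did those of Tet3 under 75th-percentile scaling and without the 10 genes with the most counts. Tet1 (1.36 to 1.60) and Tet2 (1.72 to 2.03) stayed above 1. In Tfrc/Actb, folds fell under 1 for Dnmt1 (0.641, 0.661, 0.664, 0.760), Dnmt3a (0.707, 0.729, 0.732, 0.838), Dnmt3b (0.614, 0.633, 0.635, 0.727), Dnmt3l (0.799, 0.824, 0.827, 0.947), Uhrf1 (0.717, 0.739, 0.742, 0.849), Tet3 (0.913, 0.942, 0.946 under the first 3) and Tet1 (0.973 under the median ratio only), and the median of the members went to 0.758, 0.782, 0.784 and 0.898. The values under 1 of Dnmt3l, Tet3 and Tet1 did not pass the test there. The number of members past a fold of 2 went from 2 to 0, 0, 0 and 1 in the Malat1 library and from 1 to 0 under all 4 in the Tfrc library. List genes past a fold of 2 went from 22 to 0, 0, 0 and 2 in Malat1/Actb, from 12 to 2, 2, 2 and 3 in Tfrc/Actb, and from 1 to 0 under all 4 in Malat1/Tfrc. List genes at 0.5 or less went from 1 to 6, 6, 6 and 3, and from 1 to 4, 4, 4 and 2, over the control. These scalings divided the fold of every gene alike. The divisors were 1.88, 1.84, 1.82 and 1.60 in Malat1/Actb, and 1.66, 1.61, 1.61 and 1.40 in Tfrc/Actb. Shares of all genes past the limits are not given under them, so these counts describe no change particular to members or lists.

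With Ensembl-ID counts only, Dnmt1 (0.929) and Dnmt3l (0.943) were lower in the Tfrc library than in the control, no member was past a fold of 2 there (0 instead of 1), and 11 and 6 list genes were, over the control. The value of Dnmt3l did not pass the chi-square test. With Genome counts only, Uhrf1 was 3.92 in Malat1/Actb, Dnmt3a 1.38, Tet3 1.60 and Uhrf1 1.36 in Malat1/Tfrc, 8 members were past a fold of 2 over the control in each comparison, 48, 40 and 9 list genes were past it in the 3 comparisons, and 0, 0 and 1 were at 0.5 or less. Of all genes, 24.0% and 14.1% reached a fold of 2 over the control with Ensembl-ID counts. With Genome counts, 88.6%, 79.6% and 9.86% did in the 3 comparisons, and 0.108%, 0.264% and 1.64% were at 0.5 or less. With no minimum count, 3 and 1 list genes were past either limit in Malat1/Tfrc. No share of all genes is given for that setting.

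A further alternative was chosen after seeing the data: each kind of count scaled to its own total. Genome counts then gave, over the control, 0.892 for Dnmt3a, 0.964 for Tet2 and 0.986 for Tet3 in the Malat1 library, and 0.818 for Dnmt3a, 0.995 for Dnmt3l, 0.875 for Tet1, 0.889 for Tet2, 0.777 for Tet3 and a median of 0.882 in the Tfrc library, with 0 members past a fold of 2, 0 and 1 list genes past it, and 5 list genes at 0.5 or less in the Tfrc library. In Malat1/Tfrc, Uhrf1 was 1.08, and 2 list genes were past a fold of 2 with either kind of count and 1 at 0.5 or less with Genome counts. Shares of all genes past these limits are not given for this scaling. Relative to each library's own mix of counts, Genome odds ratios turned under 1 for Dnmt1 (0.982), Dnmt3a (0.725), Dnmt3b (0.856), Tet1 (0.365), Tet2 (0.257) and Tet3 (0.721) in Malat1/Actb, and in Tfrc/Actb for Dnmt1 (0.981), Dnmt3a (0.656), Dnmt3b (0.716), Dnmt3l (0.945), Tet1 (0.507), Tet2 (0.399), Tet3 (0.493) and Uhrf1 (0.827). A pseudocount of 1 and Fisher's exact test changed no member's direction or side of the threshold, and a minimum of 50 counts moved no count of members or list genes by over 1.5 times. Levels per kilobase moved beyond their intervals in 21 of 24 cases when Genome counts were added. Depth limited Tet3 and Dnmt3l most, with 24 and 30 Genome counts in the Actb library.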
